A study of Mus musculus with 6 samples.

Results

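RNA sequencing of EL4 cells was read here for 10 genes of the Notch pathway. EL4 is a mouse T lymphoma line. The genes were taken by symbol from the 51912 Ensembl gene IDs counted, and all 10 were found. They are the receptor genes Notch1, Notch2 and Notch3, the nuclear effector genes Rbpj and Maml1, and the target genes Hes1, Dtx1, Nrarp and Ptcra. The remaining gene, Hes6, belongs to the same family as Hes1. The treated cells received RGFP966, which blocks HDAC3, a class I histone deacetylase, at 10 µM for 24 h. The control cells received vehicle for the same time, and each had 3 libraries. Both groups are labelled as wild type, no second agent is named, and a single cell line stands for T cells. Nothing in the labels ties the 3 libraries to separate cultures, so p-values measure the spread between these libraries, which may be technical.

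Notch receptors are single-pass membrane proteins that are cut by a sheddase and then by gamma-secretase when a Delta or Jagged ligand on a neighbouring cell pulls on them. The freed intracellular domain enters the nucleus, joins the DNA-binding protein RBPJ and a Mastermind coactivator such as MAML1, and switches on target genes. Without it, RBPJ holds corepressors at those genes, among them complexes of SPEN and NCoR with histone deacetylases. In the thymus, Notch1 drives commitment to the T lineage, and Hes1, Dtx1, Nrarp and Ptcra are its classical targets there.

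The library totals lay between 12935443 and 14768540 counts with RGFP966 and between 15380331 and 16451017 with vehicle. The submitters' extraction text speaks of retinas, and the cell type was therefore checked on marker genes. All 10 T cell markers were above 1 CPM (counts per 1000000 library counts), and their CPM summed to between 2714 and 2761 in RGFP966 libraries and between 2603 and 2618 in vehicle libraries. Of 11 retina markers, 2 were above 1 CPM and 3 had no count, with sums of 4.34 to 4.89 CPM with RGFP966 and 4.41 to 4.83 CPM with vehicle.

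The promoter windows of 4 of the genes are shown. They set Notch2, the receptor gene with most reads, beside Notch1, a receptor gene at almost no count. Ptcra, a target gene at almost no count, is set beside Hes6, which had most reads per length of the 10 genes. Each runs from 250 bases before to 50 bases after a RefSeq transcription start on GRCm38.p6, 5′ to 3′ on the gene's own strand. Capitals mark TGGGAA, the core that RBPJ binds, on either strand.

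Notch2: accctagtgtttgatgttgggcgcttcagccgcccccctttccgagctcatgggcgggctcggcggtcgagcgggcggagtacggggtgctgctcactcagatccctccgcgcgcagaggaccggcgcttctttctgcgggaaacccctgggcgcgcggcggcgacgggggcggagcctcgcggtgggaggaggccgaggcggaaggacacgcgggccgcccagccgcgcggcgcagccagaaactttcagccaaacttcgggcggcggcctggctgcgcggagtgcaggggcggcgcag

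Notch1: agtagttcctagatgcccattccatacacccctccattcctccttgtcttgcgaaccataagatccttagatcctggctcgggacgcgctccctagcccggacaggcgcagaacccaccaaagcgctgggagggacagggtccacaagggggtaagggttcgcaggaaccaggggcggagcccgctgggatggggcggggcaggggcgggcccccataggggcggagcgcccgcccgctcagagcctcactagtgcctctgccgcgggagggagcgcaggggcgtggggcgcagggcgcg

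Ptcra: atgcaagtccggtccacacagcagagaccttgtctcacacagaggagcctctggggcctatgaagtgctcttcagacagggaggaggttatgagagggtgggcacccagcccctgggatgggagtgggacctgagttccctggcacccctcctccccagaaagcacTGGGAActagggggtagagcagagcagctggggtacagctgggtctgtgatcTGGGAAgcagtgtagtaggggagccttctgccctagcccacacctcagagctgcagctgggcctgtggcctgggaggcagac

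Hes6: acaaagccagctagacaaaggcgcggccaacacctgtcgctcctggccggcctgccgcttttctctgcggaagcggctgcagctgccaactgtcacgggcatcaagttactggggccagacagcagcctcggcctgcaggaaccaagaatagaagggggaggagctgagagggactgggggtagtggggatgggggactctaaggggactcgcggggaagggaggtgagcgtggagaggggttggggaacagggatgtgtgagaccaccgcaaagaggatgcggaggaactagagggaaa

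These windows lie at chr3:98013288-98013587 on the plus strand, and at chr2:26503773-26504072, chr17:46763663-46763962 and chr1:91413989-91414288 on the minus strand. The Hes6 window is the upstream one of 2 that RefSeq gives for the gene. The Ptcra window held TGGGAA at 2 places, whose first bases lie at -84 and -32 from the start, both on the strand of the gene. The Notch2, Notch1 and Hes6 windows held it at 0 places. Windows were found for 9 of the 10 genes, 11 in all; Hes1 was the one without. Of those 11 windows 3 held TGGGAA, which belong to Rbpj and Ptcra, against 25.6% of all 32851 windows. The 2 Rbpj windows overlap, and the TGGGAA of the downstream window also lies in the other, so they are not separate cases. At least 2 copies stood in 3.79% of all windows. The longer GTGGGAA was in 0 of the 11 windows, against 6.38% of all, and the E-box CACGTG, a site class bound by many basic helix-loop-helix factors, was in 1, that of Nrarp, against 7.15% of all. The G and C content was 73.0% in the Notch2 window, 68.3% in that of Notch1, 61.7% in that of Ptcra and 62.0% in that of Hes6.

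The members fell into 2 sets by level. Notch2, Rbpj, Maml1 and Hes6 had at least 406 counts in every library, while Notch1, Notch3, Dtx1, Nrarp and Ptcra never had more than 3 counts in any. Hes1 lay between, with 15, 13 and 13 counts in RGFP966 libraries 1 to 3, against 6, 2 and 4 in vehicle libraries 1 to 3. Low-count genes were removed before the test by a minimum of 0.663 CPM in at least 3 libraries, and 5 of the 10 genes passed it. Hes1 passed through the RGFP966 libraries, of which 3 were over the minimum, while 0 of the vehicle libraries were, so a gene that passed in that way had to be higher with RGFP966.

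**Figure D1:**
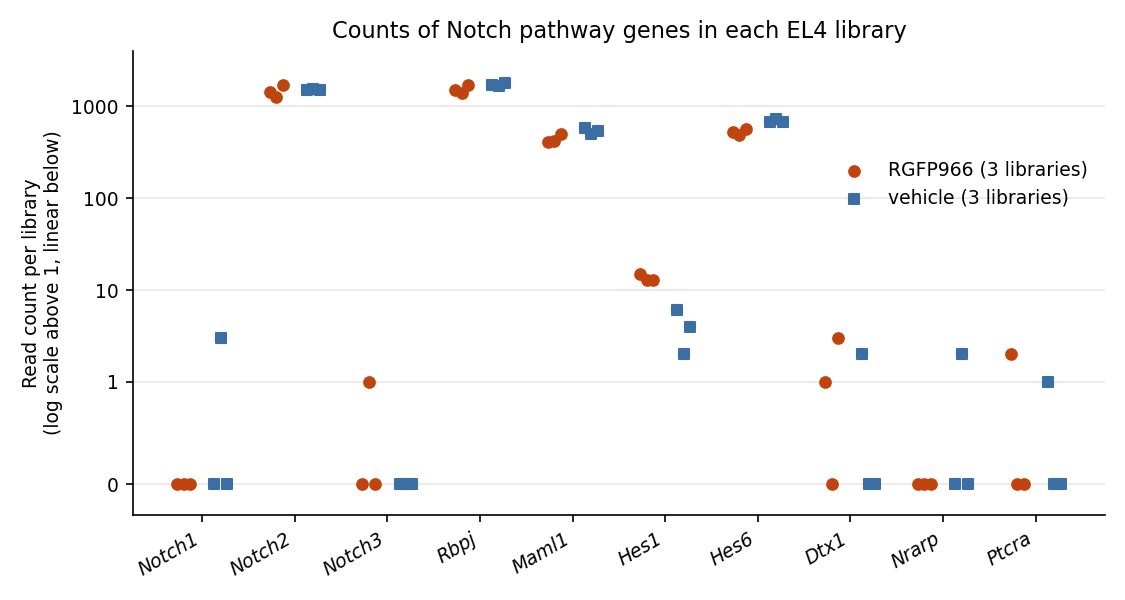
Read counts of the 10 Notch pathway genes in each library, not corrected for library size, on an axis that is logarithmic above 1 and linear below it. Circles are the 3 RGFP966 libraries and squares the 3 vehicle libraries; Notch1, Notch3, Dtx1, Nrarp and Ptcra lie between 0 and 3 counts in both groups.

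Among the 5 tested genes, Hes1 and Notch2 were called higher and Hes6 lower in RGFP966 libraries (edgeR's quasi-likelihood test, adjusted p under 0.05), and Rbpj and Maml1 were not called. Of all 13484 genes tested, 11.4% were called higher and 11.9% lower, 23.3% in all. These shares are background, and no direction is read from the counts of called members. In 3 of the 5 genes the RGFP966 and vehicle libraries did not overlap, as was so in 36.3% of all genes tested. Hes1 is among these 3, and the way it passed the filter fixed that in advance. The median log2 fold change was 0.02 over the 5 genes and -0.00 over all genes tested. With upper-quartile factors in place of trimmed mean of M values factors, rises made up 59.1% of the calls over all genes, against 49.1%.

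Notch2 (ENSMUSG00000027878, chromosome 3, 98013527 to 98150361, plus strand) encodes a receptor with broad roles in lymphocytes, among them in marginal zone B cells. It measured 103.5, 98.0 and 112.7 CPM in RGFP966 libraries 1 to 3, against 97.6, 93.9 and 96.6 CPM in vehicle libraries 1 to 3. The lowest RGFP966 library lay just above the highest vehicle library, and RGFP966 library 3 stood above the rest. Notch2 averaged 104.7 ± 7.43 CPM with RGFP966 and 96.0 ± 1.91 CPM with vehicle (SD, n = 3 each), a difference of 9.26% that on the log2 scale is 0.13 (SE 0.05, adjusted p = 0.0484). That call rested on single libraries. Leaving out RGFP966 library 3 gave 0.08 and an adjusted p of 0.354. The adjusted p was 0.0897 without RGFP966 library 1, 0.0574, 0.124 and 0.0687 without vehicle libraries 1, 2 and 3, and 0.141 by DESeq2. Over its 15 alternatives it ran from 0.0136 to 0.354, and 9 of them ended the call. Of the Notch2 exons, 5.02% are overlapped by the predicted gene Gm42820, which averaged 0.121 CPM with RGFP966 and 0.103 CPM with vehicle.

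Notch1 (ENSMUSG00000026923, chromosome 2, 26457903 to 26516663, minus strand), the receptor of T lineage commitment, had 0 counts in each of the 3 RGFP966 libraries. In vehicle libraries it had 0, 3 and 0 counts. A sum of 0 among 41268272 counts allows up to 0.0727 CPM with RGFP966, a one-sided limit of 3 counts. In vehicle libraries 3 among 47605048 counts give 0.0630 CPM (exact two-sided 95% Poisson interval 0.0130 to 0.184). The limit and the interval cover counting error alone. The 2 levels could not be told apart at this depth. Reads shared with neighbours concern 9.76% of the Notch1 exons, which the gene 0610009E02Rik overlaps on the opposite strand, and that gene averaged 0.666 CPM with RGFP966 and 0.607 CPM with vehicle.

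Notch3 (ENSMUSG00000038146, chromosome 17, 32120820 to 32166852, minus strand), a receptor gene that Notch1 itself switches on in immature T cells, had 0, 1 and 0 counts in RGFP966 libraries and 0 in each of the 3 vehicle libraries. Notch4, the remaining receptor gene and no member of the 10, had 11, 17 and 13 counts in RGFP966 libraries, against 17, 17 and 20 in vehicle libraries. It averaged 0.999 ± 0.278 CPM with RGFP966 and 1.14 ± 0.123 CPM with vehicle (SD, n = 3 each), with a log2 fold change of -0.20 (95% interval -0.94 to 0.53, adjusted p = 0.752). Per kilobase of exon and scaled to library size (RPKM), Notch2 stood at 9.71 ± 0.689 with RGFP966 and 8.90 ± 0.178 with vehicle, and Notch4 at 0.124 with RGFP966 and 0.142 with vehicle. Notch2 thus supplied nearly all Notch receptor reads in both groups.

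Rbpj (ENSMUSG00000039191, chromosome 5, 53466152 to 53657362, plus strand), the DNA-binding effector of all Notch receptors, measured 109.0, 106.8 and 112.8 CPM in RGFP966 libraries, against 109.8, 101.5 and 114.2 CPM in vehicle libraries. The RGFP966 libraries lay within the range of the vehicle libraries. The means were 109.5 ± 3.03 CPM with RGFP966 and 108.5 ± 6.46 CPM with vehicle (SD, n = 3 each), and the log2 fold change was 0.02 ± 0.05 (SE, 95% interval -0.08 to 0.11, adjusted p = 0.860). The pseudogene Rbpj-ps3 and other annotated genes share 10.6% of its 50-base words.

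Maml1 (ENSMUSG00000050567, chromosome 11, 50255634 to 50292311, minus strand) encodes a coactivator that bridges the Notch intracellular domain to acetyltransferases. It measured 29.8, 32.5 and 33.0 CPM in RGFP966 libraries, against 37.7, 30.4 and 34.0 CPM in vehicle libraries, and the groups overlapped. The log2 fold change was -0.10 ± 0.08 (SE, 95% interval -0.25 to 0.06, adjusted p = 0.394). Set per length, Rbpj stood at 8.59 ± 0.238 RPKM with RGFP966 and 8.51 ± 0.506 with vehicle, and Maml1 at 5.75 ± 0.306 with RGFP966 and 6.16 ± 0.657 with vehicle (SD, n = 3). By RPKM the order was Hes6, Notch2, Rbpj, Maml1 and Hes1 in both groups, and of the neighbours in it Notch2 and Rbpj did not differ beyond their spread in vehicle libraries. These lengths count every annotated exon of a gene, so a gene with long unused exons is set too low.

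Hes1 (ENSMUSG00000022528, chromosome 16, 30064384 to 30067796, plus strand) encodes a transcriptional repressor that serves as the standard readout of Notch signalling. It measured 1.10, 1.01 and 0.871 CPM in RGFP966 libraries, against 0.391, 0.122 and 0.256 CPM in vehicle libraries. Every RGFP966 library lay above every vehicle library, which its way through the low-count filter had fixed in advance. Hes1 averaged 0.994 ± 0.116 CPM with RGFP966 and 0.257 ± 0.134 CPM with vehicle (SD, n = 3 each), a log2 fold change of 1.93 (SE 0.51, 95% interval 0.90 to 2.96, adjusted p = 0.00373). The summed counts were 41 with RGFP966 and 12 with vehicle, which is 3.94-fold per library total (95% binomial interval 2.03 to 8.24, counting error only).

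The Hes1 call held in each of the 13 alternatives that gave it an adjusted p (0.00133 to 0.0384), including that without the low-count filter (0.00687). All of them reuse the same libraries, and all but the unfiltered one let Hes1 in through its RGFP966 libraries. They are therefore no separate support for the call. DESeq2 gave it a log2 fold change of 1.96 and no adjusted p. The level remained low throughout: per length, Hes1 stood above 8.62% of the tested genes with RGFP966 and above 1.36% with vehicle. Among the 3483 tested genes with a mean under 5 CPM, 247 were called higher and 41 lower, with a median log2 fold change of 0.09. Whether that trend with level has a part in the Hes1 rise was not tested. In bulk RNA, more cells with Hes1 transcripts and more transcripts per cell cannot be told apart.

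Hes6 (ENSMUSG00000067071, chromosome 1, 91411483 to 91414038, minus strand) belongs to the same family but in mouse neural progenitors opposes HES1 rather than acting like it. It fell to 38.07, 37.85 and 38.13 CPM in RGFP966 libraries 1 to 3, against 43.3, 44.7 and 43.0 CPM in vehicle libraries 1 to 3. The groups did not overlap, and the RGFP966 libraries were nearly equal. Their spread was smaller than counting error: the summed RGFP966 counts alone have a 95% Poisson interval of 36.3 to 40.1 CPM. Their SD therefore understates the error. The means were 38.02 ± 0.150 CPM with RGFP966 and 43.7 ± 0.912 CPM with vehicle (SD, n = 3 each), and the log2 fold change was -0.20 (SE 0.06, adjusted p = 0.0173). Hes6 thereby fell by 12.9%. The adjusted p was 0.0591 without RGFP966 library 3, 0.0562 without vehicle library 2 and 0.0766 by DESeq2. Its 15 alternatives spanned 0.0140 to 0.0766. Per length, Hes6 had the highest level of the 10 genes, 21.0 ± 0.0828 RPKM with RGFP966 and 24.1 ± 0.504 with vehicle, above 79.3% of tested genes with RGFP966 and 81.6% with vehicle.

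**Figure D2:**
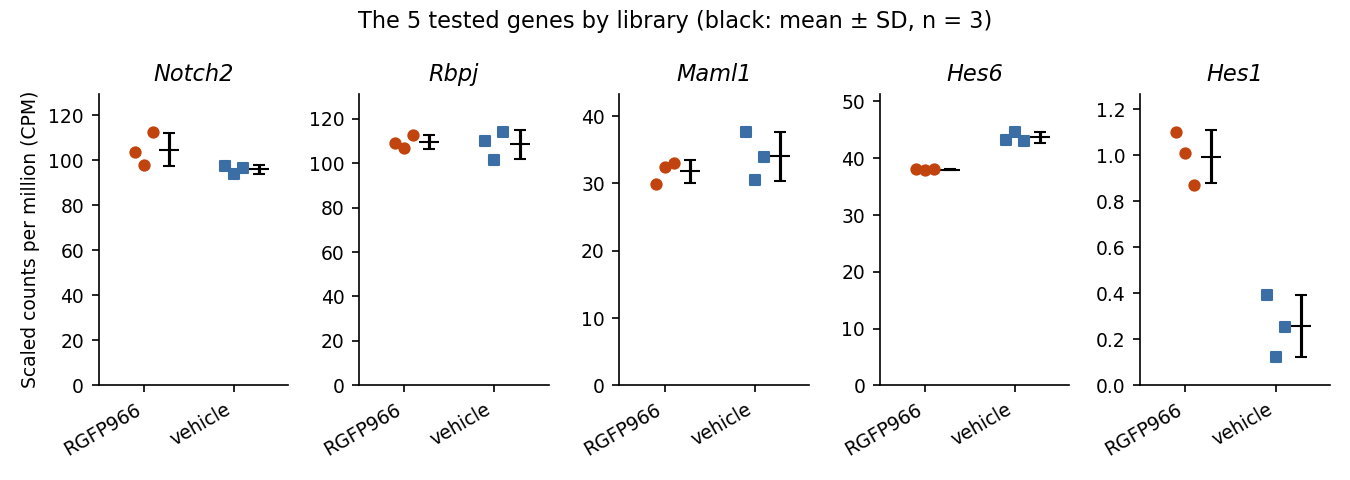
Scaled CPM of the 5 tested genes in each library, from 0, with circles for RGFP966, squares for vehicle, and black bars for the mean and SD of 3 libraries. Hes6 lies lower and Hes1 higher in all RGFP966 libraries, the lowest RGFP966 library of Notch2 lies close to the vehicle libraries, and Rbpj and Maml1 overlap.

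Ratios within a library do not depend on the scaling between libraries. Those of Notch2 and Notch3 to Notch1 had been planned, but Notch1 had 0 counts in 5 of the 6 libraries, and Rbpj was taken as the denominator after its values were seen. Per 100 Rbpj counts there were 94.9, 91.8 and 99.9 Notch2 counts in RGFP966 libraries, against 88.9, 92.5 and 84.6 in vehicle libraries, and these groups overlapped (two-sided exact permutation p = 0.2, adjusted over 3 ratios p = 0.3). For Hes6 there were 34.9, 35.4 and 33.8 with RGFP966 and 39.5, 44.1 and 37.6 with vehicle, with no overlap (two-sided exact permutation p = 0.1, the smallest that 3 against 3 allow, adjusted p = 0.3). The Maml1 ratio averaged 29.0 ± 1.54 with RGFP966 and 31.4 ± 2.59 with vehicle (SD, n = 3, two-sided exact permutation p = 0.3, adjusted p = 0.3).

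The thymic Notch targets Dtx1, Nrarp and Ptcra had almost no counts in either group. Dtx1 (ENSMUSG00000029603, chromosome 5, 120680202 to 120711927, minus strand), the gene of the ubiquitin ligase Deltex, had 1, 0 and 3 counts in RGFP966 libraries, against 2, 0 and 0 in vehicle libraries. Ptcra (ENSMUSG00000036858, chromosome 17, 46755663 to 46763712, minus strand), which encodes the invariant alpha chain of the pre-T cell receptor, had 2, 0 and 0 with RGFP966 and 1, 0 and 0 with vehicle. Nrarp (ENSMUSG00000078202, chromosome 2, 25180758 to 25183339, plus strand), the gene of an ankyrin-repeat protein that limits Notch complexes, had 0 in each of the 3 RGFP966 libraries and 0, 2 and 0 in vehicle libraries. The upper ends of the exact two-sided 95% Poisson intervals of the summed counts were 0.248 CPM with RGFP966 and 0.152 CPM with vehicle for Dtx1, and 0.175 CPM with RGFP966 and 0.117 CPM with vehicle for Ptcra. For Nrarp, 0 counts with RGFP966 allow up to 0.0727 CPM by the one-sided limit of 3 counts, and the two-sided upper end with vehicle was 0.152 CPM. No difference was detectable at this depth, and no fold is given.

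The Nrarp value carries a further limit. The predicted gene Gm38287 covers 79.4% of the Nrarp exons on the opposite strand and is itself listed at 0 counts in all libraries. Without strand, which the sources used here do not give for the counting, reads in that stretch cannot be given to either gene. Dtx1 and Ptcra exons are overlapped by no other annotated gene. Ptcra shares 1.14% of its 50-base words with other genes and Dtx1 0.0950%.

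Apart from Hes6, the other Hes and Hey genes had fewer summed counts than Hes1 in both groups. Hey1, a related repressor named here after its values were seen, had 9, 6 and 10 counts in RGFP966 libraries, against 3, 4 and 3 in vehicle libraries. The groups did not overlap, the summed counts were 25 with RGFP966 and 10 with vehicle (2.88-fold per library total, 95% binomial interval 1.34 to 6.73), and the low-count filter removed it from the test. Hes2, Hes3 and Hes7 had sums of 3, 14 and 4 counts with RGFP966, against 2, 9 and 3 with vehicle. Hes5, Hey2 and Heyl had 0 counts in all libraries, which allows up to 0.0727 CPM with RGFP966 and 0.0630 CPM with vehicle.

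Of the 5 ligand genes, 3 were tested, and Jag1 was called higher, which is 33.3% called, beside 23.3% of all genes tested. Jag1 had 17, 15 and 23 counts in RGFP966 libraries, against 6, 11 and 13 in vehicle libraries, with no overlap. That is 1.32 ± 0.198 CPM with RGFP966 and 0.632 ± 0.223 CPM with vehicle (SD, n = 3 each), or 1.05 as a log2 fold change (SE 0.39, adjusted p = 0.0439). That call was lost in 6 of 13 alternatives: the adjusted p was 0.0845, 0.0626 and 0.168 without RGFP966 libraries 1, 2 and 3, 0.191 and 0.0865 without vehicle libraries 1 and 2, and 0.0760 with no low-count filter. Jag1 lies in the same range under 5 CPM as Hes1. Jag2, at 4.06 CPM with RGFP966 and 3.26 CPM with vehicle, measured 0.32 on that scale (95% interval -0.09 to 0.73, adjusted p = 0.288), and Dll3 0.36 (adjusted p = 0.613). Dll1 had 0 counts in all libraries, and Dll4 had 3 in all with RGFP966 and 5 with vehicle.

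Jag1, Notch4 and Hey1 are also genes of endothelium, whose markers were therefore read. Of 7 endothelial markers, 2 were above 1 CPM, and their sums ran from 66.1 to 69.0 CPM with RGFP966 and from 53.9 to 56.5 CPM with vehicle. Those 2 were Pecam1, at 62.1 CPM with RGFP966 and 51.7 CPM with vehicle, and Tek, at 5.56 CPM with RGFP966 and 3.76 CPM with vehicle. Kdr and Tie1 had 0 counts, Cdh5 and Vwf had 2 each in all, and Emcn had 4. Of 7 fibroblast markers 1 was above 1 CPM, Pdgfra, and the sums ran from 54.8 to 57.4 CPM with RGFP966 and from 44.3 to 45.5 CPM with vehicle, with Col3a1 and Pdgfrb at 0 counts. Of the low fibroblast markers, Col1a1 lay at 0.783 CPM with RGFP966 and 0.364 CPM with vehicle, Lum at 0.672 CPM with RGFP966 and 0.254 CPM with vehicle, and Col1a2 at 0.151 CPM with RGFP966 and 0.0217 CPM with vehicle, while Dcn had 4 counts in all. Whether such cells have a part in the ligand and Hey1 values was not tested.

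**Figure D3:**
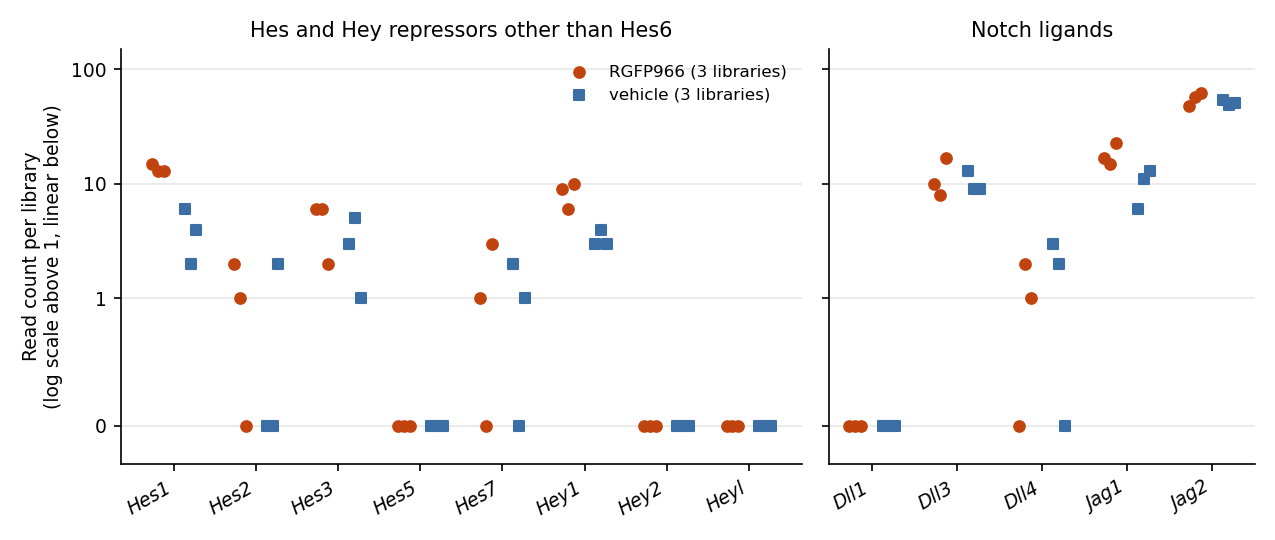
Read counts per library of the Hes and Hey genes other than Hes6 (left) and of the 5 ligand genes (right), on an axis that is logarithmic above 1 and linear below it, with circles for RGFP966 and squares for vehicle. Hes1, Hey1 and Jag1 have RGFP966 libraries above vehicle libraries, and Hes5, Hey2, Heyl and Dll1 lie at 0.

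Beyond the 10 genes, 73 other genes of the pathway were listed by role, and 60 of them were tested. The lists were chosen with earlier results of these data known. Whether that choice has a part in their shares of called genes was not tested. Of the 60 genes tested, 14 were called higher and 9 lower, which is 38.3% against 23.3% of all genes tested. The median log2 fold change was 0.01, beside -0.00 over all genes. Expression level differs between these sets: over all tested genes, 35.7% were called where the mean reached 100 CPM and 8.27% where it was under 5 CPM. Without RGFP966 library 2, 5 of these genes were called lower.

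Of the genes that modify and cut the receptor, 1 of 4 tested glycosylation genes was called higher and 1 lower, and 1 of 9 tested cleavage genes was called (11.1%), beside 23.3% of all genes tested. Among the glycosylation genes, Pofut1, which adds the O-fucose that ligand binding needs, rose to 72.6 ± 5.36 CPM with RGFP966, against 62.1 ± 2.95 CPM with vehicle (log2 fold change 0.23 ± 0.06 SE, adjusted p = 0.00179, 0.0505 without RGFP966 library 3). Mfng, the Manic fringe gene whose product extends that fucose, fell to 45.7 ± 1.08 CPM with RGFP966, against 54.3 ± 1.89 CPM with vehicle (-0.25 ± 0.06, adjusted p = 0.00140). Poglut1 and Rfng measured 0.01 and 0.02 on the same scale, and Lfng, the Lunatic fringe gene, had 0 counts in all libraries. The cleavage gene that fell was the gamma-secretase subunit gene Aph1a (-0.16, adjusted p = 0.0109, 0.0562 without RGFP966 library 2), of whose 50-base words 39.5% occur in other genes, most in Gm15429.

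The nuclear partners of RBPJ gave calls in both directions. In the coactivator list of 9 tested genes, the acetyltransferase genes Kat2b and Kat2a fell and 0 rose, which is 22.2% called and close to the 23.3% of all genes tested. Kat2b measured 35.2, 33.35 and 34.2 CPM in RGFP966 libraries, against 44.0, 45.5 and 46.1 CPM in vehicle libraries, well apart, and its log2 fold change was -0.40 (SE 0.07, adjusted p = 4.55e-06). That of Kat2a was -0.21 (SE 0.04, adjusted p = 1.44e-04). Maml2 and Maml3, further Mastermind genes, lay at 3.33 and 22.4 CPM with RGFP966, against 2.60 and 19.9 CPM with vehicle, and were not called. The list's median log2 fold change was -0.03.

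In the corepressor list of 15 tested genes, 7 rose and 2 fell, with a median log2 fold change of 0.01. That is 60.0% called, beside 23.3% of all genes tested (11.4% higher and 11.9% lower). Over all tested genes from 100 CPM up, a level that most of this list reached, 35.7% were called. Tle3, a corepressor gene of the Groucho family that HES proteins recruit, rose to 176 ± 5.16 CPM with RGFP966, against 142 ± 6.63 CPM with vehicle (log2 fold change 0.31 ± 0.04 SE, adjusted p = 1.16e-07). The NCoR subunit genes Tbl1x and Tbl1xr1 rose by 0.34 (adjusted p = 3.97e-09) and 0.33 (adjusted p = 3.80e-06) on the log2 scale. Hdac3, named here as the gene of the inhibited enzyme, lay at 85.9 CPM with RGFP966 and 89.1 CPM with vehicle (-0.05 on the log2 scale, adjusted p = 0.482). Ctbp1, a corepressor gene, fell by 0.14 on that scale (adjusted p = 0.00569). Gps2, another NCoR subunit gene, measured -0.17 (adjusted p = 0.0489), a call lost in 12 of its 15 alternatives, with 0.234 without RGFP966 library 2, 0.112 without RGFP966 library 1, 0.163 without vehicle library 1 and 0.0995 without vehicle library 3. Among the 10 tested genes of turnover and trafficking 0 rose and 1 fell, which is 10% called, beside 23.3% of all genes tested. The gene that fell, Mib1, encodes a ligase that acts on ligands and measured -0.14 as a log2 fold change (adjusted p = 0.00970). Its adjusted p was 0.0656 and 0.0607 without RGFP966 libraries 1 and 2 and 0.115 without vehicle library 3.

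**Figure D4:**
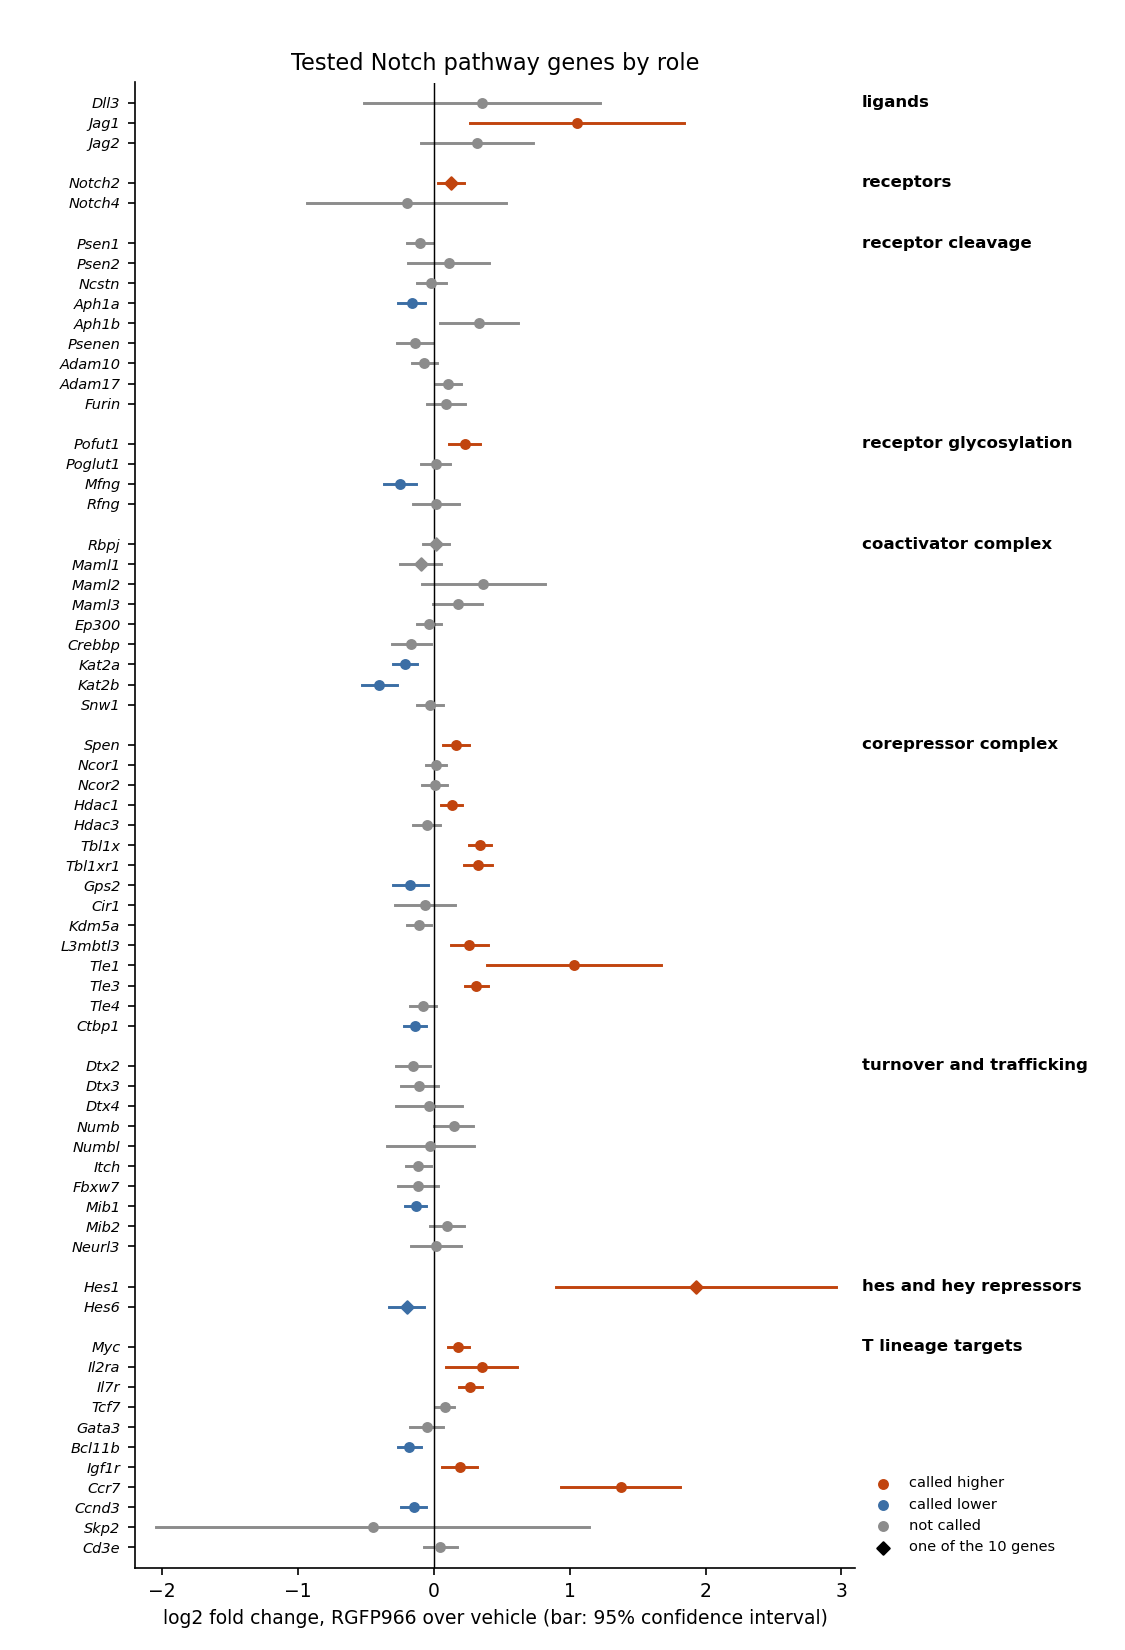
Log2 fold change, RGFP966 over vehicle, of every tested Notch pathway gene by role, with its 95% confidence interval; orange marks genes called higher, blue genes called lower and grey genes not called, and diamonds mark genes among the 10. Most changes lie close to 0, and the wide intervals of Hes1, Jag1, Tle1 and Skp2 stand beside the narrow ones of well-counted genes.

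The list of genes known as Notch targets in T cells and T cell leukaemia held 16 genes. Of these, Notch3, Dtx1, Nrarp and Ptcra had too few counts to be tested. Of the 12 tested genes 6 rose and 2 fell, with a median log2 fold change of 0.13. That is 66.7% called, beside 23.3% of all genes tested (11.4% higher and 11.9% lower), whose median was -0.00. Over all tested genes, 28.5% were called between 20 and 100 CPM and 35.7% from 100 CPM up, levels that hold most of this list. Il7r, the interleukin-7 receptor gene, rose to 192 ± 5.99 CPM with RGFP966, against 159 ± 5.92 CPM with vehicle (0.27 ± 0.04 SE, adjusted p = 1.60e-06). Ccr7, a homing receptor gene, measured 4.92, 7.37 and 5.09 CPM in RGFP966 libraries, against 2.74, 2.27 and 1.66 CPM in vehicle libraries. The groups did not overlap, and the log2 fold change was 1.37 (SE 0.22, adjusted p = 2.42e-06). Myc, the proliferation factor that Notch1 switches on in leukaemia, rose to 247 ± 5.24 CPM with RGFP966, against 218 ± 4.32 CPM with vehicle (0.18 ± 0.04, adjusted p = 3.55e-04). Bcl11b, a T lineage commitment factor, fell by 0.18 on the log2 scale (adjusted p = 9.77e-04), and Ccnd3, the cyclin D3 gene, measured -0.15 (adjusted p = 0.0148) with groups that overlapped. The adjusted p of Ccnd3 was 0.0806 and 0.107 without RGFP966 libraries 2 and 3, and 0.106 and 0.113 without vehicle libraries 1 and 3. Hes1 counts among these 6 rises, though by its way through the filter it could not have been lower. Il2ra (adjusted p = 0.0407) and Igf1r (adjusted p = 0.0226) also count among them, and lost the call in 6 and 3 of 15 alternatives. All of these genes also answer to inputs other than Notch.

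**Figure D5:**
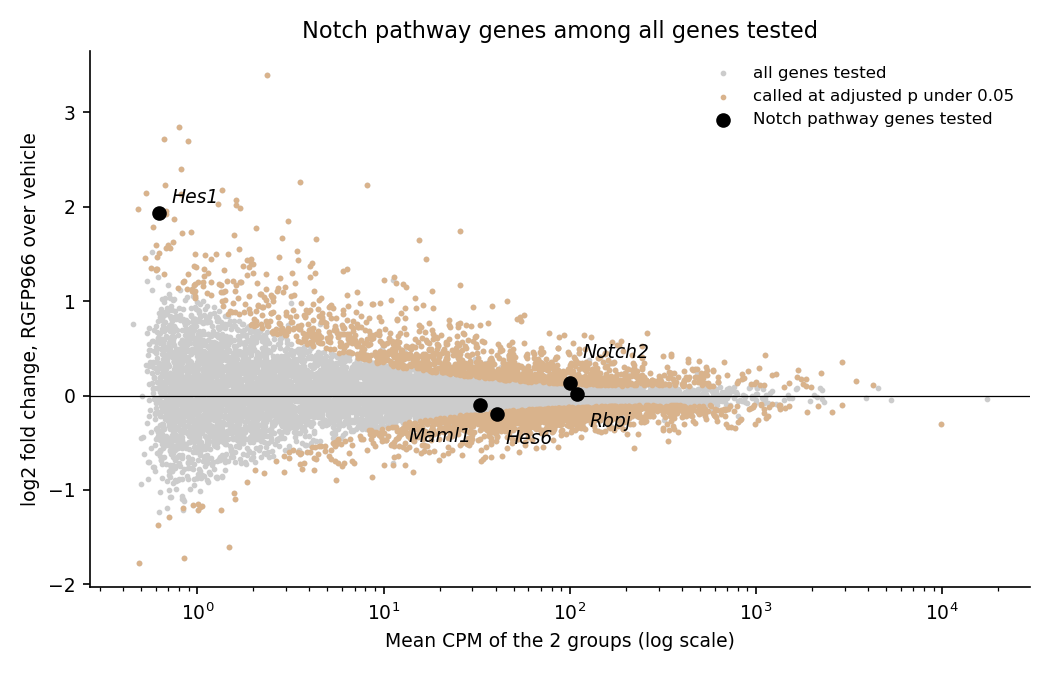
Log2 fold change, RGFP966 over vehicle, against the mean CPM of the groups on a log axis, for all 13484 genes tested (grey), those called (tan) and the 5 tested Notch pathway genes (black). Hes1 lies high at the low end of expression, at 1.93, while Notch2, Rbpj, Maml1 and Hes6 lie between -0.20 and 0.13.

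The patterns most like those of 2 of the genes were also read over the 6 libraries. Among 9301 other genes with at least 5 CPM, those whose log2 CPM followed that of Notch2 most closely included Col4a3bp and Rdh10, with a Pearson r of 0.987 and 0.985. For Hes1 the closest were Tpst1, Epb41l2 and Abcd4, at 0.996, 0.991 and 0.991. In all, 33 genes had an r over 0.95 with Notch2 and 171 with Hes1. With 6 libraries in 2 groups such values are a description, and the difference between groups is part of them.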

How the data were processed

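RNA sequencing was done on 6 libraries of EL4 cells. The deposited table holds raw read counts per Ensembl gene ID, with 1 column per library. The build was mm10 per the submitters' processing notes. Those notes name HISAT2 2.1.0, HTSeq 0.6.0, TopHat2, Bowtie2 2.2.3 and CASAVA without role or order; the sources used here give neither annotation release nor strand setting.

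Symbols (99.5% of IDs), exons, overlaps and shared 50-base words came from a gene name table and GENCODE M21 on the same assembly, with coordinates counted from 1, and promoter windows from RefSeq. All genes were tested in edgeR 4.0.16 (R 4.3.3) by its robust quasi-likelihood test, with group as the term, filterByExpr and scaling by trimmed mean of M values. Benjamini-Hochberg values run over all genes tested, and a call is an adjusted p under 0.05. SE is the log2 fold change over the root of F. CPM use the scaled library totals, while limits from summed counts use plain totals. The test was checked on simulated data in which only genes with a mean over 5 CPM were changed. Rises at lower levels, such as that of Hes1, were not simulated.

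The members and lists were chosen with earlier results of these data known. Genes beside the members were named by a rule. It took up to 3 called genes of smallest adjusted p in each direction per list, and every tested gene of lists with up to 5. The others (Hey1, Hdac3, Maml2, Maml3, Tle1, Skp2, Il2ra, Igf1r and the genes at almost no count) were added after their values were seen. Alternatives were the replicate block, DESeq2 1.42.0 size factors and Wald test, upper-quartile factors, plain totals, 2 other filters, limma-voom (limma 3.58.1), thinning, and leaving out each library. A gene named by the rule on similar patterns is not reported here.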

Additional observations from a re-analysis of the deposited data

How the results depend on the processing

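Hes1 stayed called in every alternative that gave it an adjusted p, all of which reuse the same libraries. Among the members and the other pathway genes listed, no called gene changed direction in any alternative. Rbpj and Maml1 were called in none. The number of members called higher, 2 as reported, was 1 with no low-count filter, at a minimum of 5 CPM, in limma-voom and after thinning, and 0 in the DESeq2 Wald test, where Hes1 had no adjusted p; it ran from 1 to 2 when each library was left out. The number called lower, 1 as reported, was 0 in the DESeq2 Wald test and ran from 0 to 1 when each library was left out. At the minimum of 5 CPM Hes1 was not tested. Over all genes, 1011 were called higher in the DESeq2 Wald test, against 1543 in edgeR. Of the other pathway genes, between 5 and 13 were called lower when each library was left out, and 12 of the 23 called kept their call in every alternative; Tle1, at 1.03, lost it in 3 of 14. With the replicate block 1667 genes were higher and 1764 lower, and the calls of the 10 genes did not change. No pairing by number was seen: deviations of same-numbered libraries correlated between -0.02 and 0.01. The libraries of replicate 3 correlated best with each other, and those of the other numbers did not. With 3 libraries per group, such correlations cannot exclude a pairing. Depth limits the 5 genes with at most 3 counts in a library. They were fitted with no low-count filter, and 0 of them were called, though such counts leave little room for a call. DESeq2 gave no adjusted p even to Hes1, which has more counts, so it could not have called these 5. The planned ratios to Notch1 and their leave-one-out values were not run, because Notch1 had 0 counts in 5 of the 6 libraries.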
